A study of Homo sapiens with 3 samples.

Results

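The EIF4A helicase family was followed along the transcripts of its 3 members, EIF4A1, EIF4A2 and EIF4A3, in RBM17 eCLIP-seq of K562 cells. Members were taken by gene identity, not by any measured value. Replicate 2 clusters carry an Ensembl gene in their name, and the clusters named for each of the 3 genes were collected first. The replicate 1 clusters and reproducible peaks on the same strand within the span of those clusters were then added. This gave 66 replicate 1 clusters, 51 replicate 2 clusters and 8 reproducible peaks, together 125 of the 257027 regions in the 3 deposited lists, and 3 of the 10872 genes with a replicate 2 cluster.

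K562 is an established line derived from a chronic myelogenous leukemia, and no perturbation of RBM17 entered these data. In eCLIP, ultraviolet light crosslinks a protein to the RNA it touches, an antibody pulls the protein down, and the RNA that comes with it is sequenced beside a size-matched input that runs through the same part of the gel. Here cells were irradiated at 254 nm with 400 mJ/cm2, a mixture of antibodies to RBM17 was used at 10.0 µg for each eCLIP sample, and the input was 2% of the material, taken before the washes. The groups are 2 RBM17 eCLIP replicates and 1 size-matched input. The sources do not say whether the replicates came from separate cultures, and the input enters these lists through the fold of the authors. Clusters named for all 11 of 11 K562 marker genes were present in replicate 2, while CD3E and MS4A1, markers of lymphoid cells, had none. The epithelial markers EPCAM and KRT19 had 11 and 14 reads, and each had 1 replicate 1 cluster past the threshold defined below. The K562 marker with the fewest reads had 19, so the presence of clusters alone did not set these lists apart.

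The eIF4A proteins are DEAD-box RNA helicases, which use ATP to remodel RNA. EIF4A1 and EIF4A2 encode closely related cytoplasmic paralogs that act with eIF4E and eIF4G in the eIF4F complex, which unwinds the leader of an mRNA so that the small ribosomal subunit can scan it. EIF4A3 encodes the helicase that anchors the exon junction complex on spliced mRNA, a complex read later by the nonsense-mediated decay machinery. RBM17, also known as SPF45, is a nuclear splicing factor. The introns of EIF4A1 and EIF4A2 carry small nucleolar RNAs (snoRNAs), which are released when the host transcript is spliced and which guide chemical modification of ribosomal RNA.

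In the GENCODE v44 annotation (hg38), 5 snoRNAs lie inside EIF4A2, 3 inside EIF4A1 and 0 inside EIF4A3, each on the strand of its host. The 5 below are those with a replicate 2 cluster in their name that overlapped a replicate 1 cluster with a fold below the input. Cluster positions are in another build and were not matched to these snoRNAs, so a snoRNA missed by name is not listed. The capitals mark the box motifs that define the classes, where found on the RNA strand: TGATG within the first 25 bases and CTGA within the last 25 for C/D box snoRNAs, or ACA within the last 6 for H/ACA box snoRNAs. Of 942 annotated snoRNAs, 29.0% held the first pair and 37.2% held the last motif. SNORD2 is in intron 3 of EIF4A2 (chr3:186784796-186784864, plus strand), SNORA81 in intron 7 (chr3:186786675-186786852, plus strand) and SNORA4 in intron 9 (chr3:186787612-186787749, plus strand). SNORA48 is in intron 3 of EIF4A1 (chr17:7574713-7574847, plus strand) and SNORD10 in intron 5 (chr17:7576811-7576952, plus strand). In SNORA81 none of these motifs was found in these windows.
SNORD2: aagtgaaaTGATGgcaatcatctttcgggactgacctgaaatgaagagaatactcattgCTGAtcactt
SNORA81: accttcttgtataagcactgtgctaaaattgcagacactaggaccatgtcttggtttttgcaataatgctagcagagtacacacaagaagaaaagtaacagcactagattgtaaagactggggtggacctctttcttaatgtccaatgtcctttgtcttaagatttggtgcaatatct
SNORA4: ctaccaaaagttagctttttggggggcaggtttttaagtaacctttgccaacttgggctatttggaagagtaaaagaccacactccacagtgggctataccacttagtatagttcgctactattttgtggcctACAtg
SNORA48: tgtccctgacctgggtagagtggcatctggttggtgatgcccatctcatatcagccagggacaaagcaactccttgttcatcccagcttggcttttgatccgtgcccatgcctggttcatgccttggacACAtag
SNORD10: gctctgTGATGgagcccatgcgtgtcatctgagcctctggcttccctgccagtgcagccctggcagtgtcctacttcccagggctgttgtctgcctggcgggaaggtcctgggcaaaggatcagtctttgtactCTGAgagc

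The microRNA gene MIR1248 shares intron 7 of EIF4A2 with SNORA81. Its mature sequence in RefSeq (GRCh38.p14, chr3:186786675-186786701, plus strand) is shown with the seed, bases 2 to 8, in capitals. It is given because the authors' annotation assigned the EIF4A2 peak with the largest fold to this microRNA. That peak, chr3:186504751-186504847 in hg19, overlapped no cluster named for SNORA81. Those clusters ended at 186504633, upstream of the peak. The 27 bases of the mature form are the first 27 bases of the SNORA81 sequence above, starting at its base 1, so a read from this stretch cannot be told apart between these genes and the intron that holds them.
hsa-miR-1248: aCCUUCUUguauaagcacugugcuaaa

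The replicates were deposited in different units. Each replicate 1 cluster has a log2 fold over the size-matched input and a −log10 p, with no read count, so its depth is unknown. Each replicate 2 cluster has the number of reads in it and the p-value of the peak caller within that library, with no comparison to the input. Replicate 2 clusters held 3 to 8215 reads with a median of 5, and 1336569 reads in all when each interval was counted once. A reproducible peak has 1 fold and 1 −log10 p for both replicates together. A replicate 1 cluster was counted as past the threshold when its log2 fold and its −log10 p were both at least 3, the fold cutoff being that of the reproducible peaks. No fold has a replicate error. Cluster positions are in hg19, judged from the highest position on chromosome 1, 249211724, and were not converted.

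The 3 genes differed widely in depth. Replicate 2 placed 1167 reads in the 24 clusters of EIF4A2 (exact Poisson 95% interval 1101 to 1236), 427 in the 16 clusters of EIF4A1 (387 to 469) and 55 in the 11 clusters of EIF4A3 (41.4 to 71.6). These intervals, which cover counting error only, do not overlap. EIF4A2 stood at the 99.4th percentile of genes by reads, EIF4A1 at the 96.8th and EIF4A3 at the 63.1th, beside a median of 33.0 reads a gene. Per kilobase of the span between the first and last replicate 2 cluster, the levels were 264 reads for EIF4A2, 81.3 for EIF4A1 and 4.76 for EIF4A3. Replicate 2 reads are not relative to an input, so more transcript and more binding per transcript cannot be told apart.

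Both replicates gave the genes the same order by number of clusters. EIF4A2 held 48.5% of the family's replicate 1 clusters and 47.1% of its replicate 2 clusters, EIF4A1 held 30.3% and 31.4%, and EIF4A3 held 21.2% and 21.6%. Pooled over both lists, 47.9% of 117 clusters were in EIF4A2 (exact Clopper-Pearson 95% interval 38.5 to 57.3), 30.8% in EIF4A1 (22.6 to 40) and 21.4% in EIF4A3 (14.3 to 29.9). The pooled intervals of neighbours in this order overlap, while those of EIF4A2 and EIF4A3 do not. Pooling counts sites called in both replicates more than once, so these intervals are too narrow. In replicate 1 alone, EIF4A2 (36.0 to 61.1) and EIF4A3 (12.1 to 33.0) did not overlap. In replicate 2 alone they did (32.9 to 61.5 and 11.3 to 35.3). EIF4A3 has the longest span, 11561 bp, beside 5250 bp for EIF4A1 and 4424 bp for EIF4A2.

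EIF4A2 carried the strongest enrichment of the family over the input in replicate 1. Of its 32 clusters, 18 were past the threshold, or 56.2% (exact interval 37.7 to 73.6), beside 5.35% of all replicate 1 clusters. In EIF4A1 7 of 20 passed, 35% (15.4 to 59.2), and in EIF4A3 2 of 14, 14.3% (1.78 to 42.8). The median log2 fold was 3.30 in EIF4A2, 0.30 in EIF4A1 and 1.98 in EIF4A3, beside 1.51 over all clusters. EIF4A3 had the higher median of the latter pair but fewer clusters past the threshold. Its largest −log10 p was 3.55, beside 9.41 in EIF4A1 and 75.6 in EIF4A2, and with no p required 3 of its 14 clusters reached the fold of 3. By the number of clusters past the threshold, EIF4A2 was at the 99.5th percentile of genes, EIF4A1 at the 97.4th and EIF4A3 at the 91.6th.

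The share past the threshold differed between EIF4A2 and EIF4A3, with an odds ratio of 7.71 (two-sided Fisher's exact test, p = 0.0106, Benjamini-Hochberg adjusted over the 3 pairs 0.0317). The other pairs did not pass the test. The odds ratio was 2.39 for EIF4A2 against EIF4A1 (Fisher's exact test, adjusted p = 0.245) and 3.23 for EIF4A1 against EIF4A3 (Fisher's exact test, adjusted p = 0.250). Clusters on 1 transcript are not independent replicates, so these p-values are too small. The call between EIF4A2 and EIF4A3 was lost when abutting clusters were merged (odds ratio 7.64, Fisher's exact test, adjusted p = 0.0518), when a fold of 4 was required (0.250) or when no p was required (odds ratio 4.71, adjusted p = 0.156).

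**Figure D1:**
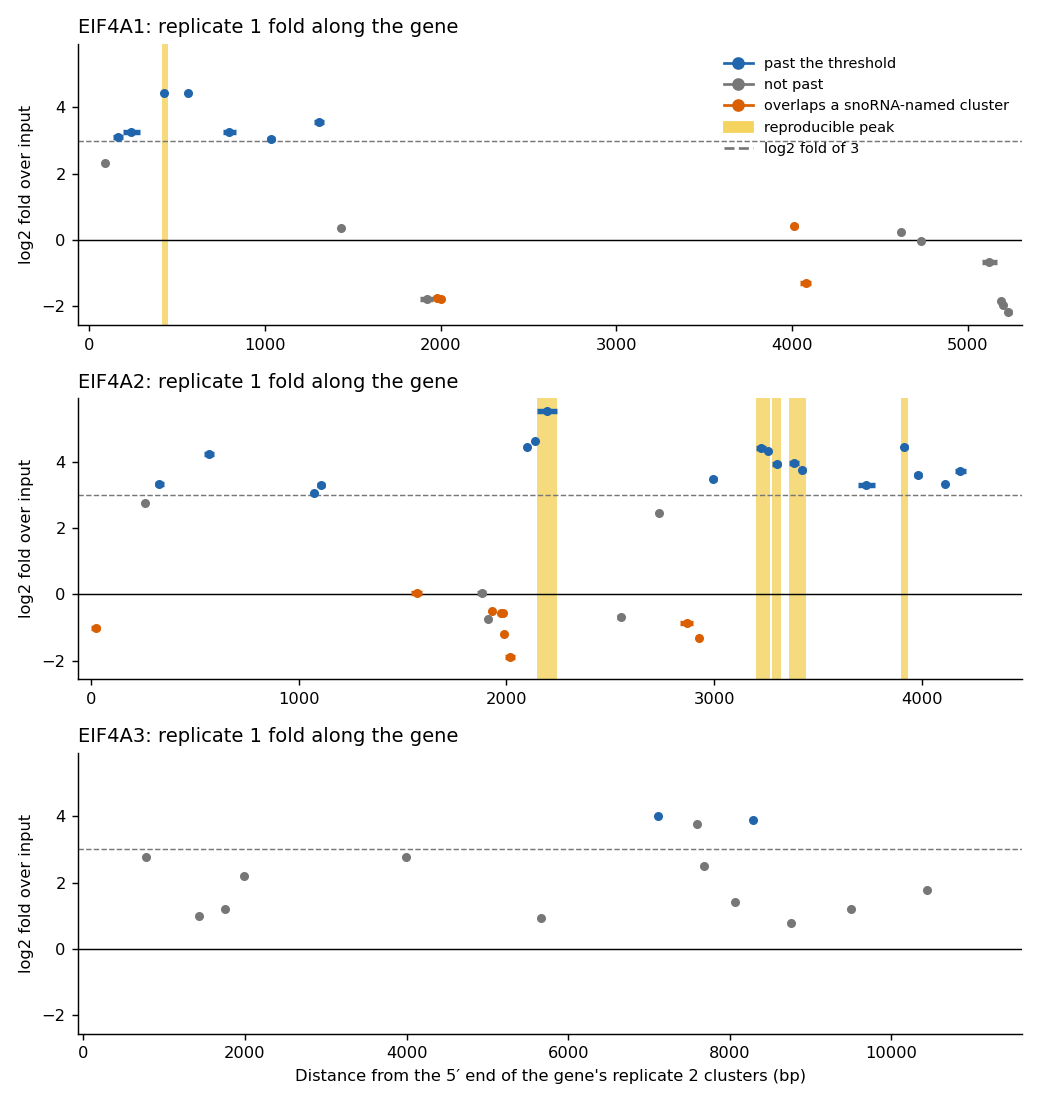
Log2 fold over the size-matched input of each replicate 1 cluster (vertical axis) against its distance in bp from the 5′ end of the gene's replicate 2 clusters (horizontal axis), for EIF4A1, EIF4A2 and EIF4A3. Each point with its bar is 1 cluster and its length, blue for past the threshold, orange for overlapping a cluster named for a snoRNA and grey for the rest, and yellow bands are reproducible peaks. The 7 blue points of EIF4A1 lie within 1279 bp of the 5′ end, the 18 of EIF4A2 fall in 3 stretches, and the orange points sit at or under 0.41.

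Along EIF4A2 the clusters past the threshold fell in 3 stretches. Its span starts at SNORD2, in intron 3, so the 5′ end of the span is not that of the gene. The first held 4 clusters, starting 308 to 1090 bp from the 5′ end of the span, with log2 folds of 3.32, 4.23, 3.05 and 3.30. The next held 3 clusters, starting 2086 to 2148 bp in, with 4.44, 4.63 and 5.53. The last of these, chr3:186504751-186504847, had the largest fold and the largest −log10 p of the family, 75.6.

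The third stretch of EIF4A2 held 11 clusters that followed each other without a break, starting 2978 to 4157 bp from the 5′ end. Their log2 folds, in order, were 3.48, 4.42, 4.33, 3.95, 3.98, 3.74, 3.31, 4.44, 3.60, 3.34 and 3.71. None of the 11 overlapped a cluster named for a snoRNA. The most significant after the cluster above was chr3:186506297-186506374, with a −log10 p of 39.8 at a fold of 3.31, and it lay outside the reproducible peaks.

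Between these stretches the folds of EIF4A2 dropped below the input. The 8 clusters that started 1543 to 1994 bp in ranged from −1.89 to 0.04, 6 of them below 0, and 6 overlapped clusters named for SNORA63B or SNORA81. The 4 clusters that started 2533 to 2914 bp in ranged from −1.33 to 2.47, with the lowest pair at SNORA4. From the last SNORA81 cluster to the first cluster past the threshold after it, the fold went from −1.89 to 4.44 between clusters that started 1994 and 2086 bp from the 5′ end.

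Of the 866 reproducible peaks, 7 were in EIF4A2, 1 in EIF4A1 and 0 in EIF4A3. Of the genes whose clusters overlapped between replicates, 6.03% had any. All 7 peaks of EIF4A2 had the same interval as a replicate 1 cluster and none had that of a replicate 2 cluster, whereas over all peaks 58.7% had a replicate 1 and 41.5% a replicate 2 interval. The largest, chr3:186504751-186504847, had a log2 fold of 4.28 and a −log10 p of 9.80. The authors' annotation placed it near the microRNA named above, and the other 6 in proximal introns of EIF4A2.

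Those 6 peaks lay in the third stretch. Chr3:186506502-186506533 had a log2 fold of 3.89, chr3:186505805-186505851 of 3.64 and chr3:186505852-186505872 of 3.36. The remaining peaks were at 3.18 (chr3:186505965-186506009), 3.04 (chr3:186505881-186505925) and 3.01 (chr3:186506010-186506044), the last just inside the cutoff of 3 for a peak. Of these, 2 pairs of neighbours abut, so the 7 peaks are not 7 separate sites.

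The combined fold was lower than that of replicate 1 in 7 of 7 EIF4A2 peaks. At the largest peak the values were 5.53 in replicate 1 and 4.28 combined, and at the smallest they were 3.74 and 3.01. Over all peaks the highest fold among the overlapping replicate 1 clusters was above the combined fold in 64.3%. The −log10 p at these 7 intervals ran from 19.0 to 75.6 in replicate 1 and from 3.82 to 9.80 combined. Replicate 2 had 31 to 45 reads in the EIF4A2 cluster at each peak.

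Of the 18 EIF4A2 clusters past the threshold, 7 were reproducible peaks, 3 more overlapped a replicate 2 cluster without being a peak, and 8 overlapped none. All 4 clusters of the first stretch were among those 8. Chr3:186503148-186503193, with a log2 fold of 4.23 and a −log10 p of 21.4, was the strongest of the 4. Thus the first stretch was seen in replicate 1 only. Of the third stretch, 9 of the 11 clusters overlapped a replicate 2 cluster, and of the stretch before it 1 of the 3. Over all replicate 1 clusters past the threshold, 11.3% overlapped a reproducible peak. The share of them that overlapped a replicate 2 cluster was not computed, so the 8 without one have no background.

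In EIF4A1 the enrichment was at the 5′ end. A first cluster 78 bp into the span had a log2 fold of 2.31, and the next 7, starting 138 to 1279 bp in, were past the threshold. Their log2 folds were 3.10, 3.26, 4.44, 4.44, 3.26, 3.05 and 3.55, in order. The most significant was chr17:7477441-7477498, with a −log10 p of 9.41.

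The remaining 12 clusters of EIF4A1, starting 1418 to 5209 bp in, ranged from −2.18 to 0.41, and 9 of them were below 0. None passed the threshold. The lowest folds, −1.84, −1.96 and −2.18, were at the 3′ end of the span, under a replicate 2 cluster of 69 reads. A cluster of 48 reads there was named for ENSG00000207152, an identifier that GENCODE v44 does not hold. SNORA67, in intron 9, is the annotated snoRNA nearest the 3′ end of EIF4A1. In hg38 it is at chr17:7577955-7578091, downstream of SNORA48 at chr17:7574713-7574847. In hg19 the cluster named for ENSG00000207152 is at chr17:7481348-7481406, downstream of that named for SNORA48 at chr17:7478126-7478165. If both builds keep this spacing, the ENSG00000207152 cluster falls on SNORA67. No conversion between builds was run. In EIF4A2, by contrast, the last replicate 1 cluster of the span was past the threshold.

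The same log2 fold came with less significance in EIF4A1 than in EIF4A2. A log2 fold of 4.44 had a −log10 p of 5.03 at both such clusters of EIF4A1, and of 19.7 and 21.0 at those of EIF4A2. Among clusters past the threshold, the −log10 p had a median of 6.13 and a lowest value of 5.03 in EIF4A1, and a median of 20.4 and a lowest value of 13.4 in EIF4A2. Over all clusters past the threshold, the median was 5.73.

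The reproducible peak of EIF4A1, chr17:7476577-7476613, had a log2 fold of 4.46 and a −log10 p of 4.94, close to the 4.44 and 5.03 of the replicate 1 cluster it overlapped (chr17:7476575-7476600). The authors annotated it to the 5′-UTR. The replicate 2 cluster with the interval of this peak held 15 reads but was named for ENSG00000264772, a long noncoding RNA gene on the same strand, and for ENSG00000265500, which GENCODE v44 does not hold. No cluster named for EIF4A1 overlapped the peak. In the span of EIF4A1, each of these identifiers named 21 clusters with 496 reads, against 16 clusters and 427 reads for EIF4A1, so reads of EIF4A1 and of the overlapping transcripts cannot be told apart.

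EIF4A3, the exon junction helicase, had a sparse pattern. Its 14 replicate 1 clusters ranged from 0.77 to 4.00 in log2 fold and none was below 0, beside 11.4% of all clusters, 9 of 20 in EIF4A1 and 10 of 32 in EIF4A2. The clusters past the threshold were chr17:78113635-78113709 (log2 fold 4.00, −log10 p 3.55) and chr17:78112466-78112536 (3.89 and 3.26), starting 7078 and 8251 bp from the 5′ end. Between them, chr17:78113168-78113227 stood just outside, with a log2 fold of 3.77 and a −log10 p of 2.97.

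Neither EIF4A3 cluster past the threshold overlapped a replicate 2 cluster, and no reproducible peak was called in the gene. Its replicate 2 clusters held 3 to 8 reads with a median of 5, the median of the library, while those of EIF4A1 held 10 to 112 with a median of 17 and those of EIF4A2 held 19 to 199 with a median of 34.5. The clusters of EIF4A2 and EIF4A3 did not overlap in reads. The smallest caller p was 4.98e-05 in EIF4A3, 9.24e-77 in EIF4A1 and 5.21e-133 in EIF4A2.

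Clusters at snoRNAs were mostly below the input. The 13 replicate 1 clusters that overlapped a snoRNA-named cluster included 11 below 0 and 0 past the threshold. Over the whole series, these 13 included, 93.8% of 210 such clusters were below 0 and 0 were past the threshold, with a median log2 fold of −1.54. In EIF4A2 8 of 9 were below 0, with a median of −0.87, and in EIF4A1 3 of 4, with a median of −1.53.

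The folds of the replicate 1 clusters that overlapped a snoRNA-named cluster ran from −1.89 to 0.41. SNORA81, the H/ACA snoRNA of intron 7, had 5 clusters between −1.89 and −0.49, and SNORA4 had 2 at −1.33 and −0.87. SNORA48 had 2 at −1.79 and −1.76, and the C/D box snoRNA SNORD2 had 1 at −1.01. SNORD10 had 1 at −1.29 and 1 at 0.41, and SNORA63B had 1 at 0.04. These last values are the exceptions above 0. No replicate 1 cluster overlapped the replicate 2 cluster named for SNORA63. No replicate 2 cluster carried the GENCODE v44 identifier of SNORA67, so no cluster could be assigned to it by name. By the spacing given above, the clusters at ENSG00000207152 fall on SNORA67 if both builds keep it. For SNORA63, whether replicate 1 clusters lie on it was not tested by position.

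Without the clusters that overlapped a snoRNA-named cluster, the paralogs stayed in the same order by the share past the threshold. In EIF4A2 18 of 23 of the other clusters passed, 78.3% (exact interval 56.3 to 92.5), with a median log2 fold of 3.60. In EIF4A1 7 of 16 passed, 43.8%, with a median of 1.34, and 6 of these 16 were below 0. These 6 lay outside clusters named for a snoRNA but can still lie on a snoRNA missed by name. The 43.8% is therefore not a share of clusters known to lie off snoRNAs. They include −1.84, −1.96 and −2.18, at the cluster named for ENSG00000207152, which by the spacing given above may fall on SNORA67. Another, −1.79 at chr17:7478045-7478121, abuts a cluster that overlaps one named for SNORA48. Only 1 of the 20 EIF4A1 clusters, at 2.31, lay between 0.41 and the threshold.

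**Figure D2:**
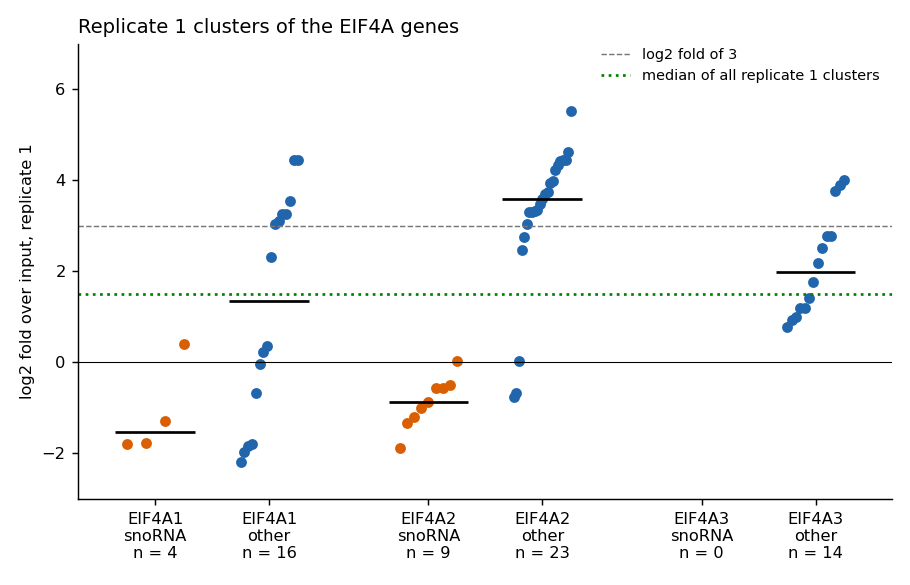
Log2 fold over the input of every replicate 1 cluster of the 3 genes (vertical axis), split by gene and by whether the cluster overlapped a snoRNA-named cluster (horizontal axis). Each point is 1 cluster and the black bar is the median, with the dashed line at the threshold of 3 and the dotted line at 1.51, the median of all replicate 1 clusters. The snoRNA points of EIF4A1 (n = 4) and EIF4A2 (n = 9) lie at or under 0.41, and 18 of the other 23 points of EIF4A2 lie above 3. Other points can still lie on a snoRNA missed by name.

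The snoRNAs took a large part of the replicate 2 reads of their hosts. In EIF4A2, 7 of 24 clusters overlapped a snoRNA-named cluster, and these held 539 of 1167 reads, 46.2% (exact interval 43.3 to 49.1). In EIF4A1, 3 of 16 clusters held 169 of 427 reads, 39.6% (34.9 to 44.4). The share in EIF4A1 was 55.7% when ENSG00000207152 was counted as a snoRNA and 18.1% without the cluster with the most reads. In EIF4A3 it was 0 of 55 reads, for which the exact interval reaches 6.49% and 3 reads would make 5.45%.

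The clusters with the most reads were at snoRNAs in both hosts. In EIF4A2 the highest, chr3:186504526-186504596, held 199 reads, 17.1% of the gene, and the next, chr3:186504597-186504642, held 113, both at SNORA81. In EIF4A1 the highest, chr17:7478092-7478166 at SNORA48, held 112 reads, 26.2% of the gene. Clusters named for the snoRNAs themselves held 383 reads for SNORA81, 76 for SNORA4, 48 for SNORD2, 11 for SNORA63B and 6 for SNORA63 in EIF4A2, and 90 for SNORA48 and 38 for SNORD10 in EIF4A1. Except for that of SNORA63B, these clusters overlapped clusters named for the host, so the same reads may be counted in both and were not added to its total.

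The replicate 2 reads were then split by the replicate 1 fold at the same place. In EIF4A2, 554 reads, 47.5%, lay in 7 replicate 2 clusters where every overlapping replicate 1 cluster was below the input, and 334, 28.6%, lay in 8 clusters where 1 was past the threshold. In EIF4A1 the same classes held 239 reads, 56.0%, in 5 clusters and 16 reads, 3.75%, in 1 cluster. Of the clusters named for the overlapping ENSG00000264772, 5 were at EIF4A1 clusters past the threshold, with 73 of 496 reads, 14.7%. The ranges of reads per cluster overlapped between the classes in EIF4A2, at 33 to 199 and 29 to 83. No replicate 2 cluster of EIF4A3 overlapped a replicate 1 cluster past the threshold.

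**Figure D3:**
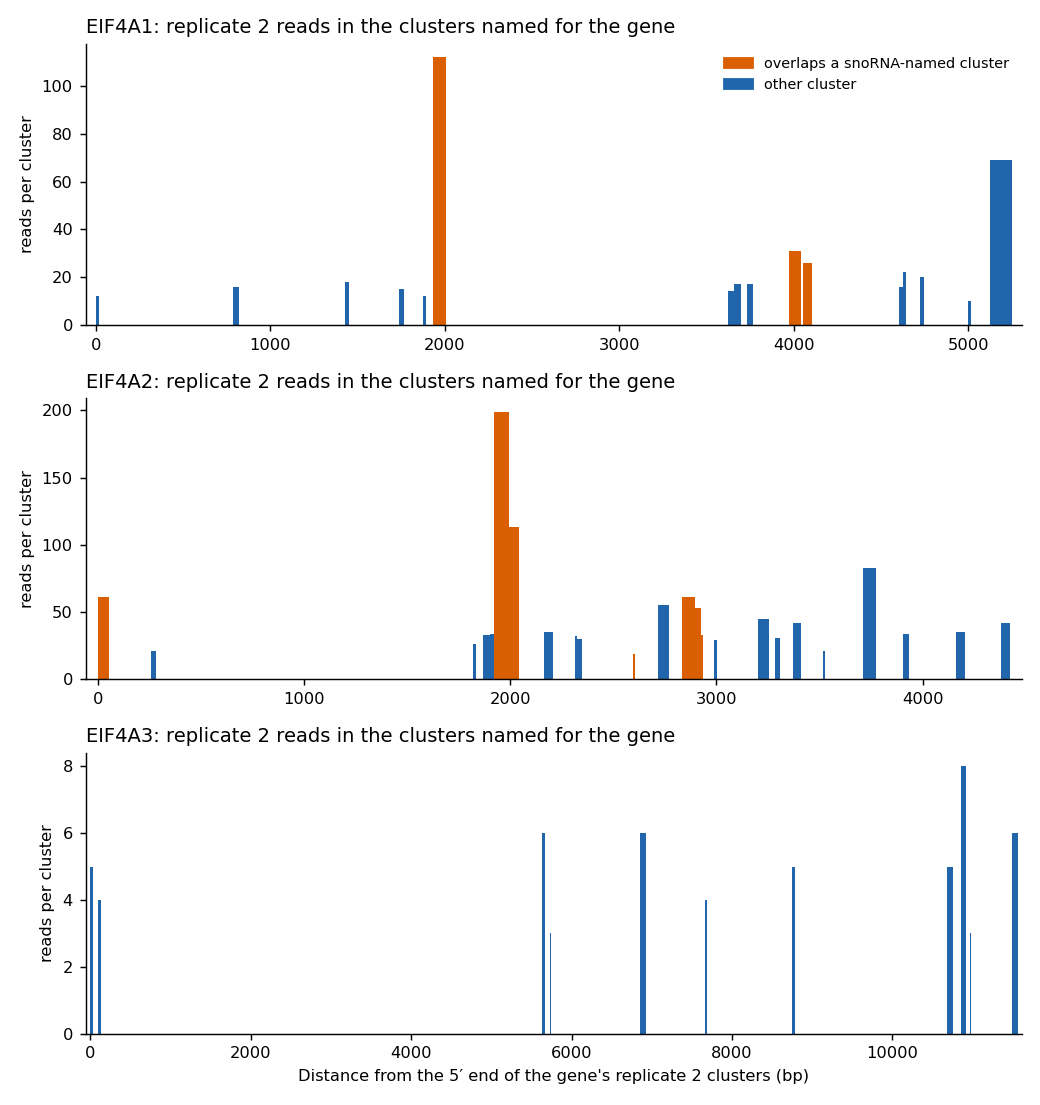
Reads in each replicate 2 cluster named for the gene (vertical axis, separate scale for each gene) against distance in bp from the 5′ end of the gene's clusters (horizontal axis). Each bar spans 1 cluster and is orange where the cluster overlaps a snoRNA-named cluster. The tallest bars, 199 reads in EIF4A2 and 112 in EIF4A1, are at snoRNAs, and no cluster of EIF4A3 has more than 8 reads.

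The replicates shared most of the clusters of EIF4A2 and EIF4A1 and fewer of those of EIF4A3. In EIF4A2 18 of 24 replicate 2 clusters, 75.0% (exact interval 53.3 to 90.2), overlapped a replicate 1 cluster on the same strand, in EIF4A1 10 of 16, 62.5% (35.4 to 84.8), and in EIF4A3 3 of 11, 27.3% (6.02 to 61.0). Over all replicate 2 clusters this was 31.9%, and 0.0193% overlapped one on the opposite strand. EIF4A2 and EIF4A3 differed, with an odds ratio of 8 (two-sided Fisher's exact test, p = 0.0115, adjusted p = 0.0344), a call lost when 50% of each replicate 2 cluster had to be covered (adjusted p = 0.0825). EIF4A2 and EIF4A1 did not pass the test (odds ratio 1.80, Fisher's exact test, adjusted p = 0.490), nor did EIF4A1 and EIF4A3 (4.44, Fisher's exact test, adjusted p = 0.180). Clusters on 1 transcript are not independent replicates, so these p-values are also too small. The median reads per cluster, 34.5, 17 and 5, fell in the same order. Replicate 1 clusters covered 1141 bp of the 4424 bp span in EIF4A2, 872 of 5250 in EIF4A1 and 535 of 11561 in EIF4A3. The part of reads and of this coverage in the result was not tested.

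The gene structures and sequences bear on how far the paralogs can share reads. EIF4A1 and EIF4A2 each have 11 exons in their canonical GENCODE v44 transcripts, with median introns of 242 and 247 bp, and EIF4A3 has 12 exons with a median intron of 640 bp. In hg38, EIF4A1 is at chr17:7572824-7579006 on the plus strand, EIF4A2 at chr3:186783205-186789897 on the plus strand and EIF4A3 at chr17:80134369-80147151 on the minus strand. The coding sequences of EIF4A2 and EIF4A1 were identical at 77.3% of aligned bases, EIF4A2 and EIF4A3 at 66.9%, and EIF4A1 and EIF4A3 at 65.8%. The longest exact run shared by any pair was 20 bases, between EIF4A2 and EIF4A1, against a read length of 75 bases before trimming. Introns and snoRNAs were not compared, and whether reads map uniquely was not tested.

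The partners of the helicases in their complexes gave a background for the family. Of 12 genes of eIF4F and its regulators other than EIF4A, 12 had replicate 2 clusters, 3 had a replicate 1 cluster past the threshold and 1 had a reproducible peak. Over all genes with overlapping clusters, 23.6% had a cluster past the threshold. EIF4G2, an eIF4G relative that binds eIF4A but not eIF4E, had 23 of 48 clusters past the threshold, 47.9%, and 2 peaks, the higher with a log2 fold of 4.40. EIF4B, a cofactor of the helicase, had 4 of 30, and EIF4G1, the main scaffold, had 2 of 32.

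PABPC1, the cytoplasmic poly(A)-binding protein on the same list, combined many reads with low folds. It had 856 replicate 2 reads, more than EIF4A1, but 0 of its 35 replicate 1 clusters were past the threshold and their median log2 fold was −0.31.

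Of 14 exon junction and nonsense-mediated decay genes, 13 had replicate 2 clusters, RBM8A being the exception when looked up by its GENCODE v44 identifier (another identifier in the deposited names was not tested), and 4 had both a cluster past the threshold and a peak, beside 23.6% and 6.03% of all genes with overlapping clusters. ACIN1, a peripheral exon junction protein, had 17 of 39 clusters past the threshold, 43.6%, and 2 peaks. UPF1, the helicase of nonsense-mediated decay, had 10 of 37 and 1 peak at 3.86, CASC3, a core exon junction subunit, had 7 of 27 and 1 peak at 4.19, and PNN had 3 of 14 and 1 peak at 4.72. MAGOH, which with RBM8A locks EIF4A3 on RNA, had 0 of 7. These 4 were the only genes of the list with a cluster past the threshold. EIF4A3 itself, with 2 of 14 clusters past the threshold and 0 peaks, was below these 4 by count. It was above the other genes of the list, which had none past the threshold. Over each list, 10.9% of 265 eIF4F clusters and 15.2% of 243 exon junction clusters were past the threshold, beside 5.35% of all clusters. Few genes made up these shares. EIF4G2 alone held 23 of the 29 eIF4F clusters past the threshold. ACIN1 and UPF1 held 17 and 10 of the 37 on the exon junction list.

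**Figure D4:**
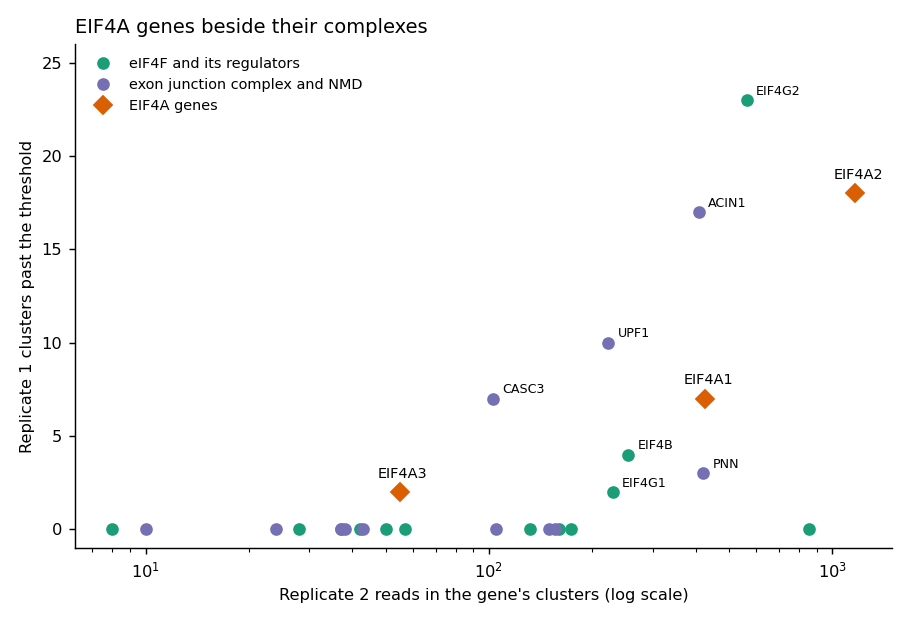
Number of replicate 1 clusters past the threshold (vertical axis) against replicate 2 reads on a log scale (horizontal axis) for the EIF4A genes (diamonds), genes of eIF4F and its regulators (green) and exon junction and nonsense-mediated decay genes (purple) with a replicate 2 cluster. EIF4A2 has the most reads, 1167, and the second highest count, 18, after the 23 of EIF4G2, while PABPC1, the unlabelled point at 856 reads, has 0.

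The genes most like each member were found by distance over the log2 numbers of replicate 1 clusters, replicate 2 clusters and replicate 2 reads, 3 measures in 2 libraries. EEF1A1, which encodes a translation elongation factor, was nearest to EIF4A2, at a distance of 0.10, with 15 of 33 clusters past the threshold and 3 peaks. DGCR8, of the microprocessor complex, at 0.19, and HNRNPD, at 0.30, had 2 of 28 and 8 of 37 past the threshold. H3-3B, nearest to EIF4A1 at 0.20, had 12 of 19 and 5 peaks, and NDUFV1 and PIM1, at 0.21 and 0.23, had 1 of 19 and 3 of 21 and 2 peaks each. ENSG00000264058, RASA1 and SAAL1, nearest to EIF4A3 at 0.05, 0.10 and 0.11, had no cluster past the threshold and no peak. Among EIF4A2 and its 3 nearest genes, the share past the threshold ran from 7.14% in DGCR8 to 56.2% in EIF4A2.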

How the data were processed

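Positions were taken as deposited (hg19, judged from their range). The authors trimmed and aligned reads (cutadapt and STAR, per the labels) and called clusters with the eCLIP pipeline 0.4.0. The deposited values of replicate 1 and of the reproducible peaks are a log2 fold over the size-matched input and its −log10 p. For replicate 2, the deposited p-value is that of the peak caller within the library, at most 0.05, and the deposited cluster names hold a read count. Sample titles number the replicates 2 and 3, and the descriptions, followed here, 1 and 2. The study's methods describe duplicates and, for sequencing, triplicates.

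Overlaps needed 1 bp on the same strand. Shares have exact Clopper-Pearson 95% intervals and read totals exact Poisson intervals, for counting error only. Fisher's exact test (two-sided, scipy 1.17.1) was run on pairs of paralogs, with Benjamini-Hochberg adjustment over 3 pairs. Python 3.11.15, pandas 2.3.3, numpy 2.4.6, biopython 1.88 and matplotlib 3.10.9 were used, and the overlap counts and tests were tested on simulated data. Names, introns and snoRNA sequences came from GENCODE v44 (hg38), and snoRNA overlap of clusters came only from the gene names of replicate 2 clusters, without conversion between builds. The region of a peak is the authors' annotation. A marker gene on the lists is not reported here. The named genes were the members, genes inside their spans, pathway genes with a peak or among the 2 of their list with the most clusters past the threshold, and the 3 nearest genes. EIF4G1, PABPC1, MAGOH and RBM8A were named after their values were seen. The members and lists were chosen with earlier results of these data known. Alternatives were other thresholds on fold, p and reads, other overlap rules, merged clusters and leaving out a replicate, with 4 added after seeing the data.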

Additional observations from a re-analysis of the deposited data

Results flagged for a closer look

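A replicate 1 cluster just before the span of EIF4A2 was noticed among regions that the comparisons did not use. It lay at chr3:186501822-186501849 on the same strand, 753 bp before the first EIF4A2 cluster of replicate 2, with a log2 fold of 4.77 and a −log10 p of 19.7. That fold is above the input and above those of 17 of the 18 EIF4A2 clusters past the threshold. No replicate 2 cluster named for EIF4A2 reached it, so it was not a member. Its neighbours within 1000 bp of the span had log2 folds of 2.60 and 1.16. The span begins at a cluster that overlaps one named for SNORD2, in intron 3 of EIF4A2, so part of the gene lies before the span. In hg38 EIF4A2 starts at chr3:186783205 and SNORD2 at 186784796, farther apart than 753 bp. If both builds keep this spacing, the flagged cluster lies within the gene, and the counts above leave it out. No replicate error exists for these values, and no conversion between builds was run.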

How the results depend on the processing

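No paired analysis was possible because the results come from 2 replicates of 1 condition in different units. Leaving out a replicate gave shares of the family's clusters of 30.3 to 31.4% in EIF4A1, 47.1 to 48.5% in EIF4A2 and 21.2 to 21.6% in EIF4A3. At a log2 fold of 4 the shares past the threshold were 10.0% in EIF4A1, 21.9% in EIF4A2 and 0 in EIF4A3, whose highest value of 4.00 is rounded up, and EIF4A2 kept 1 peak. At a −log10 p of 5 EIF4A3 had 0% and EIF4A1 had 0 peaks, and EIF4A1 against EIF4A3 passed the Fisher's exact test (adjusted p = 0.0393). For EIF4A2 against EIF4A3 the adjusted p of the Fisher's exact test was 0.250 at a fold of 4, 0.0518 with merged clusters and, chosen after seeing the data, 0.156 at any p. Without clusters that overlapped a snoRNA-named cluster, also chosen later, EIF4A2 had 78.3%. Overlap on the opposite strand was 0 in all 3 genes. At a caller p of 1e-10, 100% of 4 EIF4A1 clusters overlapped, which turned the order of EIF4A2 and EIF4A1 (Fisher's exact test, adjusted p = 0.539), and with 50% overlap EIF4A2 against EIF4A3 had 0.0825. The snoRNA share of reads was 53.5% in EIF4A1 and 62.9% in EIF4A2 with each entry counted, 18.1% and 35.1% without the cluster with the most reads, and 55.7% in EIF4A1 with ENSG00000207152, chosen after seeing the data. EIF4A3 had no replicate 2 cluster of 10 or more reads or with p at most 1e-10, so these gave no value. The causes of these changes were not tested. The other 84 values kept their direction and side of the threshold. The low depth of EIF4A3, 55 reads, limits its shares.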
